A study of Mus musculus with 12 samples.

Results

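MHC class II-high macrophages without monocyte markers were a set of 1037 GFP+ cells from the brains of mice transplanted with genetically engineered hematopoietic stem/progenitor cells (HSPCs). Members were chosen by their own UMI counts: a GFP+ cell was a member if Cd74, H2-Aa, H2-Ab1 and H2-Eb1 together made up at least 0.6% of its unique molecular identifiers (UMIs) and at least 3 UMIs, and if it held 0 UMIs of 9 markers of monocytes and dendritic cells (Ly6c2, Ccr2, Plac8, Flt3, Zbtb46, Cd209a, Xcr1, Ccr7 and Clec9a). The members came from 11767 GFP+ cells, of 30775 cells in 12 libraries that had 200 or more genes and no more than 10% of UMIs from mitochondrial genes. Because these 13 genes chose the members, they are described below and not tested.

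MHC class II molecules present peptides taken up from outside the cell to CD4+ T cells. The transactivator Ciita switches on the class II genes together with the invariant chain Cd74, which guards the peptide groove until the H2-DM complex exchanges its last fragment for a peptide. Microglia of the healthy brain carry little class II, whereas some macrophages of the brain's borders (CNS-associated macrophages, CAMs) and dendritic cells carry much more.

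The recipients were 4 wild-type C57BL/6J mice conditioned with busulfan, which empties the marrow niche. Lin- HSPCs pooled from male donors and carrying GFP from the lentiviral vector LVV.GFP were given intravenously (i.v.) or into 1 lateral ventricle (i.c.v.), with 1 female and 1 male mouse per route. All mice later received total bone marrow without vector i.v. The text of the study calls all donors of this experiment male, but its methods say so only of the transduced pools, so the sex of this marrow is uncertain. The GFP- sort may hold donor cells without the vector as well as endogenous microglia. Brain cells that were CD45+, CD11b+ and CX3CR1+ were sorted by FACS into GFP+ microglia-like cells (MLCs) and GFP- cells, 1 library of each per mouse. The labels give an age of 22 to 28 weeks, whereas the design text places the sort 12 to 13 months after dosing. Microglia, neurons, astrocytes and peripheral blood mononuclear cells (PBMCs) of a treatment-naive mouse of 8 to 12 weeks made up 1 library each. A p-value here rests on libraries of 4 mice, with sex and animal not separable within a route. In edgeR the spread was largely shared over genes, so a gene's own spread between mice counted little in most comparisons.

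Of the members, 459 came from the i.v. female, 350 from the i.v. male, 25 from the i.c.v. female and 203 from the i.c.v. male mouse, and values per library are given in this order throughout. The other GFP+ cells with 0 UMIs of the 9 markers numbered 9518, and 743 further GFP+ cells were class II-high with at least 1 UMI of a marker. Kept cells of the 4 GFP+ libraries held 8835197 to 16514669 UMIs per library. The median member had 5133, 1128.5, 3160 and 964 UMIs, against 2217, 1102, 1038 and 1034 in the other cells, so members were deeper in both female mice. Between pairs of treated libraries 101 cell barcodes were shared over 28 pairs, and 3 of the 12 shared between GFP+ libraries belonged to a member.

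The promoters of class II genes are known for a shared pair of elements upstream of the start site, the X box and the Y box, through which Ciita acts. For class II genes with an entry in the RefSeq promoter table (GRCm38.p6), the 150 bases before the start were searched on both strands for the X box letters (AACNN directly followed by ATGNTG, where N is any base) and the Y box letters TGATTGG, which do not overlap each other and were chosen with these promoters in view. The sequences below, 5′ to 3′ on the strand of the gene with the matches in capitals, are shown because they set a rule gene beside the H2-DM genes whose levels are compared next. H2-Eb1 lay at chr17:34305717-34305866 on the plus strand, H2-DMb1 at chr17:34153041-34153190 on the plus strand, H2-DMb2 at chr17:34145099-34145248 on the plus strand and H2-Aa at chr17:34287824-34287973 on the minus strand.
H2-Eb1: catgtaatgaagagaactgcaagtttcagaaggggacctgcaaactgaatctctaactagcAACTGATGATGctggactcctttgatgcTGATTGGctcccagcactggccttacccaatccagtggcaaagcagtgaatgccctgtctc
H2-DMb1: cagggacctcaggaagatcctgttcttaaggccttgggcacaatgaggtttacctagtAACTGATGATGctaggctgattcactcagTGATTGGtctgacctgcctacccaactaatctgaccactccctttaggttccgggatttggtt
H2-DMb2: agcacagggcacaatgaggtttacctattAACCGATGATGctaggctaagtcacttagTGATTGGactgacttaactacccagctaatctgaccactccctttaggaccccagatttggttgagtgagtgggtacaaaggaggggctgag
H2-Aa: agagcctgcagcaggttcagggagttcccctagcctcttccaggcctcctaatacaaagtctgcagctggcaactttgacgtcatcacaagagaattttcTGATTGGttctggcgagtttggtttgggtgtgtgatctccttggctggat

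In these windows the X box letters of H2-Eb1, H2-DMb1 and H2-DMb2 began 89, 92 and 121 bases before the start, with the Y box letters 28, 29 and 29 bases further on. In H2-Aa only the Y box letters were found, 50 bases before the start. An X box of another spelling would be missed by this search. Of 32851 promoters of the same length, 94 (0.286%) held the X box letters, 1877 (5.71%) the Y box letters, and 6 (0.0183%) both with the Y box up to 60 bases downstream on the same strand. The 6 were H2-DMb1, H2-DMb2, H2-Eb1, H2-Eb2, H2-Ob and Gm35444. H2-DMa had windows at chr17:34122682-34122831 and chr17:34125368-34125517 on the plus strand, and neither held either set of letters. Which start of H2-DMa was used in these cells was not tested.

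By the rule's own genes, members were far above the other GFP+ cells of their library. Cd74 stood at 19516, 19828, 16981 and 15868 CPM (UMIs of a gene scaled to the total of the sum) in the member sums and at 334, 329.6, 110.0 and 274 CPM in the others. H2-Aa stood at 9709, 8772, 5814 and 7292 CPM, H2-Ab1 at 8664, 7103, 4108 and 5721 CPM and H2-Eb1 at 8763, 7255, 5028 and 5759 CPM in members. The i.c.v. female mouse was lowest for these 3 genes and i.v. female highest. The median member had 2.99, 1.49, 1.48 and 1.21% of its UMIs in the 4 class II genes, the median other cell 0.0282, 0.0789, 0 and 0.0180%. Just inside the threshold, between 0.6 and 0.7%, were 20, 29, 2 and 22 members with a median of 11, 6, 29.5 and 4 class II UMIs. Just outside it, between 0.5 and 0.6%, were 28, 49, 4 and 62 cells with a median of 7.5, 4, 21.5 and 3, so at the edge the class rested on few molecules in all libraries but that of the i.c.v. female.

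How often such cells occurred was compared after drawing 500 UMIs from every cell, so that 0.6% was 3 UMIs in each. In the i.v. female, members then made up 23.2% of GFP+ cells (95% Clopper-Pearson interval 21.8 to 24.6) and in the i.v. male 23.9% (22.1 to 25.7). They made up 1.49% (1.06 to 2.03) in the i.c.v. female and 8.71% (7.80 to 9.69) in the i.c.v. male. Without thinning, members made up 13.7, 15.4, 0.954 and 5.74% of the libraries, with i.v. 11.2 percentage points above i.c.v. At 500 UMIs some cells lose the only UMI of a marker and others cross the class II threshold by sampling. In the i.v. female, members went from 459 to 775 while class II-high cells with a marker went from 457 to 198. In the i.v. male, members went from 350 to 541 and those with a marker from 259 to 121. In the i.c.v. male, members went from 203 to 308 while class II-high cells with a marker went from 21 to 9. The i.v. shares at 500 UMIs thus take in cells that held a marker at their own depth. The i.v. mean of 23.5 ± 0.494% (SD, n = 2) exceeded the i.c.v. mean of 5.10 ± 5.11% (n = 2) by 18.4 percentage points. The 2 routes did not overlap, but the two-sided exact permutation p of 0.333 is the smallest that 2 against 2 allows.

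In the GFP- libraries the order of the routes was the opposite. Cells that met the same rule made up 1.72, 3.01, 11 and 7.54% there, with i.v. 6.90 percentage points below i.c.v. (-6.90; exact permutation p = 0.333, n = 2 per route). Without thinning these shares were 1.16, 1.73, 6.34 and 4.53%, with i.v. below i.c.v. by less (-3.99 points), and at 1000 UMIs the difference was -3.13, with 5.94% in the i.c.v. female. Within each mouse, at 500 UMIs, the GFP+ minus GFP- difference was 21.5, 20.9, -9.51 and 1.17 percentage points. Both i.v. mice were thus high in GFP+, and the i.c.v. female was higher in GFP-. Over all 4 mice, GFP+ libraries averaged 14.3 ± 11% and GFP- libraries 5.82 ± 4.26% (SD, n = 4 each), a difference of 8.50 points that did not exceed the spread (exact permutation p = 0.286). With the i.c.v. female left out of GFP+, the difference was 12.8 points (exact permutation p = 0.0571). Leaving out any other single library gave exact permutation p of 0.257 to 0.514. The permutation did not pair the GFP+ and GFP- libraries of the same mouse. The naive comparators gave 7.26% (35 of 482 cells) for microglia and 22.8% (76 of 334) for PBMCs, at a median of 425 UMIs in the microglia library. Without thinning they gave 2.75% (35 of 1274) and 2.35% (8 of 341), with 140 further PBMCs class II-high and positive for a marker. None of 482 naive neurons or 1146 naive astrocytes met the rule, which allows shares of up to 0.622% and 0.262%.

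**Figure D1:**
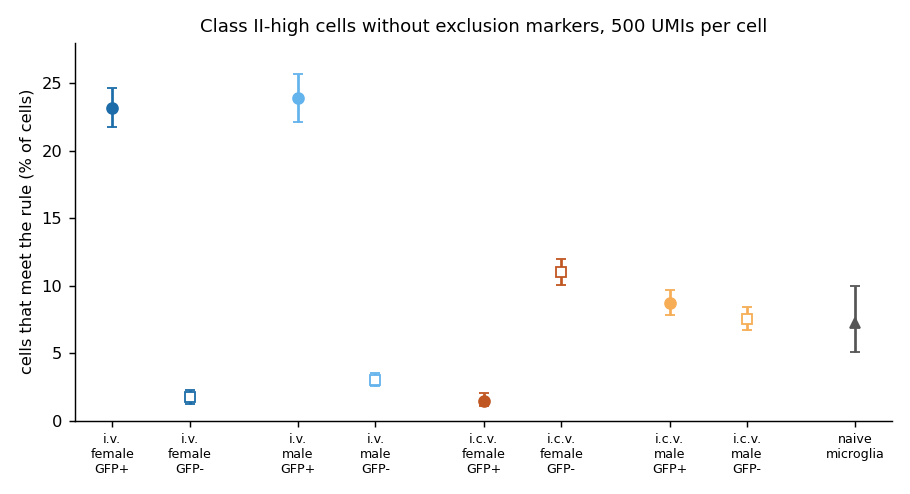
Percent of kept cells that met the class II-high rule after drawing 500 UMIs per cell (y axis, linear from 0), with exact 95% intervals for counting error, in GFP+ (filled) and GFP- (open) libraries of the 4 treated mice and in naive microglia. Both i.v. GFP+ libraries sit above 20%, and the i.c.v. female mouse has 1.49% in GFP+ and 11% in GFP-.

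Free RNA was read from cells that should lack class II. Naive neurons and astrocytes other than rule cells held a class II UMI in 0.524 and 0.535% of cells, at medians of 6937 and 3395 UMIs. In the i.v. GFP+ libraries, 5 and 8 cells with at least 3 neutrophil markers and no macrophage marker held a class II UMI in 0 and 50.0% of cells, and 0 of them met the rule. Of 5, 3 and 2 cells with at least 3 glia markers and no macrophage marker in the first 3 GFP+ libraries, 20, 33.3 and 0% held a class II UMI and 0 met the rule, although class II made up 5.10% of all UMIs of these 5 cells in the i.v. female. All of it lay in 1 cell, which was past the class II threshold and failed the rule by holding a marker. The 0 there thus does not measure free class II RNA. Among the other GFP+ cells, 64.1, 72.4, 21.2 and 55.4% held at least 1 class II UMI, so a single UMI did not separate members from the rest.

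Members carried the macrophage markers that their name implies. At least 3 of the macrophage core markers, such as the complement gene C1qa and the receptor gene Csf1r, were detected in 94.8, 89.4, 100 and 99.5% of members. At least 3 homeostatic microglia markers were detected in 93.0, 92.3, 100 and 99.5%, and at least 3 CAM markers in 91.5, 79.7, 92.0 and 82.8%. The core shares were 91.4 to 98.1% in the other GFP+ cells and 94.6 to 100% in class II-high cells with a marker. They therefore did not set members apart. The summed level of the CAM list ranged from 6043 to 8171 CPM in members and from 6299 to 6969 CPM in the other cells, whereas that of the homeostatic list ranged from 16286 to 18825 CPM in members and from 29534 to 35739 CPM in the others. At 500 UMIs, 54.7, 52.9, 60 and 66.5% of members held a defining microglia marker, 36.8, 35.1, 36 and 49.8% a defining CAM marker, and 22.7, 23.4, 16 and 33.5% both. These shares were not set against a background of free RNA, and doublets were not removed.

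Markers of other cells were at lower summed levels. At least 3 dendritic cell markers outside the rule were detected in 37.9, 29.1, 32.0 and 22.2% of members and in 14.2 to 16.4% of the other cells, at the cells' own depth, and at 500 UMIs at least 1 was detected in 33.8 to 48.0% of members and 30.7 to 39.6% of the others. At least 3 monocyte markers outside the rule were detected in 5.42 to 9.37% of members and in 2.18 to 4.89% of the other cells at the cells' own depth, whereas at 500 UMIs at least 1 was detected in 11.8 to 18.9% of members and 13.6 to 18.7% of the others. Their summed level was 267 to 327 CPM in members and 236 to 427 CPM in the others. T or NK cell markers summed to at most 7.42 CPM, neutrophil markers to at most 14.5 CPM and erythroid markers to at most 0.763 CPM in members. Choroid plexus or ependymal markers summed to 74.2 to 617 CPM in members and 136 to 4366 CPM in the others, with at least 1 in 7.43 to 17.2% and 3.63 to 14.1% of cells at 500 UMIs. B cell markers summed to 156 to 203 CPM (186 to 197 CPM in the others), astrocyte markers to 33.2 to 104 CPM (41.0 to 139 CPM), oligodendrocyte markers to 69.4 to 82.0 CPM (61.7 to 182 CPM) and endothelial or mural markers to 18.4 to 42.0 CPM (24.7 to 65.8 CPM). The part of dendritic cell transcripts in the results below was not tested; counts without the cells that carry them follow the dendritic cell genes.

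Origin could be read in the 2 female recipients, because the transduced donor cells were male. At 500 UMIs, Y-linked transcripts were detected in 13.3% of members of the i.v. female (61 of 459) and in 24.0% of the i.c.v. female (6 of 25), beside 20 and 16.3% in the male mice and 14.7 to 21.4% in the other GFP+ cells. Xist, the RNA of the inactive X chromosome, was detected in 0.436% of members of the i.v. female (2 of 459), against 2.74% of the other GFP+ cells of that library. In the i.c.v. female it was detected in 12.0% (3 of 25), against 0.710% of the others, so 3 of the few members there carried a female transcript. EGFP was detected in 2.83, 1.14, 4.00 and 0.985% of members and in 1.19, 0.901, 1.18 and 0.569% of the others, low shares in cells that had all been sorted as GFP+.

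The same measures differed in the GFP- rule cells. In the i.v. female 12.9% of them held a Y-linked transcript and 29.0% Xist, against 0.313 and 79.2% of the other GFP- cells. In the i.c.v. female none of 276 held a Y-linked transcript and 31.5% held Xist, against 0.769 and 58.2% of the others. GFP- rule cells of the i.v. female thus included cells with a male transcript, and those of the i.c.v. female showed none at 500 UMIs. At the cells' full depth, Y-linked transcripts were in 5 of 276 of the latter (1.81%) and in 1.31% of the other GFP- cells of that library.

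Members and other GFP+ cells of the same library were then compared across genes, on UMIs summed per library and class with the 13 rule genes left out. In such sums, fewer expressing cells and less RNA per cell cannot be told apart. Of 10188 genes tested by edgeR's quasi-likelihood test with library as a block, 1311 (12.9%) were higher and 982 (9.64%) lower in members at a Benjamini-Hochberg adjusted p under 0.05, and the median log2 difference was -0.03. A fit with a more robust spread per gene and DESeq2 were run beside it, and 793 (7.78%) higher and 456 (4.48%) lower genes were called in the same direction in all 3. After every cell was drawn down to 500 UMIs and the classes were chosen again (775, 541, 39 and 308 members), 489 higher and 276 lower genes were called, and without the library of the i.v. female 865 and 516. Without the i.v. male library 931 and 623 genes were called. Without cells that held a UMI of the non-myeloid or neutrophil lists, which left 132, 159, 9 and 85 members, 188 and 97 genes were called, and 11.9% of the calls were kept. In the sentences below a gene is said to have risen or fallen where edgeR called it, CPM are normalized by TMM within the comparison, and differences are on the log2 scale with their standard errors. Groups of sums did not overlap for 17.2% of all genes tested.

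The machinery that makes and loads class II rose at 3 points and otherwise did not follow. Of 12 genes of class II loading and regulation tested, 3 rose and 3 fell (median 0.01), 3 and 2 of them in all 3 fits. Ciita, the class II transactivator, stood at 79.8, 80.0, 37.4 and 63.7 CPM in members and at 2.86, 6.83, 0.905 and 1.57 CPM in the others. It was far higher in members of every mouse, with a log2 difference of 4.49 ± 0.22 (adjusted p = 3.52e-29 by edgeR). H2-DMb1, the beta chain of H2-DM, stood at 727, 588, 329 and 575 CPM against 107, 101, 86.9 and 91.5 CPM, a difference of 2.56 ± 0.10 (adjusted p = 1.22e-34). H2-DMa, its alpha chain, stood at 873.5, 739, 516 and 753 CPM against 428, 383, 370.3 and 383 CPM, a smaller rise of 0.90 ± 0.10 (adjusted p = 1.05e-12). No groups overlapped for these 3 genes, and all 3 rose at 500 UMIs per cell too.

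H2-DMb2, whose promoter window holds the same pair of elements as H2-DMb1, did not rise with it. It stood at 9.87, 6.67, 0 and 1.68 CPM in members and at 11.9, 14, 13.9 and 11.5 CPM in the others, and fell by 0.83 in edgeR (adjusted p = 0.0462) but not in all 3 fits. H2-DMb1 and H2-DMb2 are close copies between which the counting could split reads, so the split between them is uncertain. H2-Ob, a chain of the H2-DM inhibitor H2-O, stood at 20.2, 15.8, 22.4 and 10.1 CPM against 22.0, 14.4, 19.5 and 20.2 CPM (difference -0.17 ± 0.22, adjusted p = 0.656). Both genes were at low levels in members and in the other cells.

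The proteases that trim the invariant chain were level or slightly lower. Ctss, a cathepsin that cuts it in antigen-presenting cells, stood at 5796, 4232, 4391 and 4060 CPM in members and at 4957, 4290.3, 4698 and 4604 CPM in the others (difference -0.02 ± 0.09, adjusted p = 0.937). Ctsl fell by 0.39 (adjusted p = 0.00138) and Lgmn, legumain, fell by 0.28 (adjusted p = 0.0201). The RFX subunits Rfx5, Rfxap and Rfxank, which bind the X box, showed differences of 0.05, 0.37 and 0.20 with adjusted p of 0.939, 0.172 and 0.689.

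**Figure D2:**
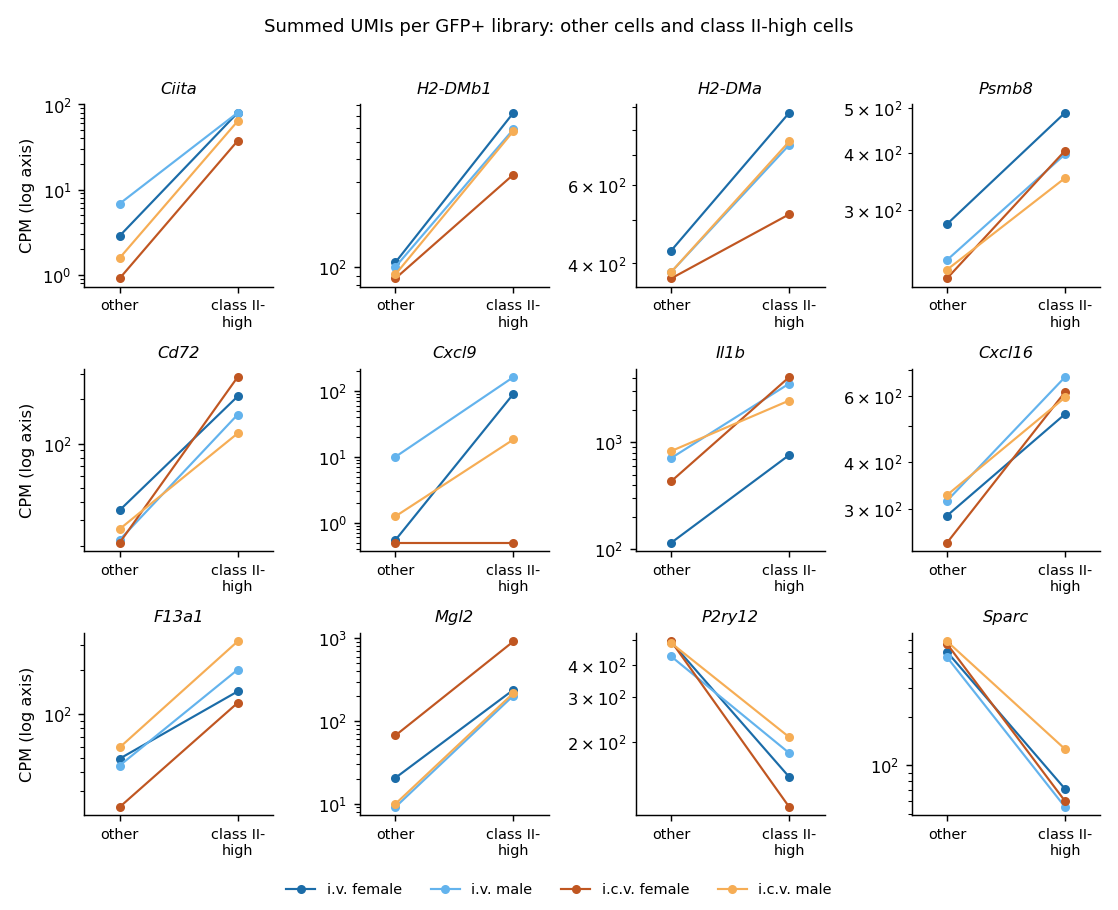
TMM-normalized CPM (y axis, log scale, values under 0.5 drawn at 0.5) of single genes in the sums of other GFP+ cells and of class II-high members, with 1 line per library. Lines for Ciita and H2-DMb1 rise in all 4 libraries, and lines for P2ry12 and Sparc fall in all 4.

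MHC class I presentation also rose, by less. Of 16 genes of this list tested, 11 rose and 0 fell (median 0.49), 9 of them in all 3 fits, but only 1 of 15 rose without cells that held at least 2 UMIs of other monocyte and dendritic genes. H2-D1, a classical class I heavy chain, stood at 2611, 2448, 2416 and 2073 CPM in members and at 1604, 1453, 1299 and 1508 CPM in the others, and rose by 0.70 ± 0.09 (adjusted p = 2.38e-09). H2-K1 rose by 0.50 ± 0.09, the immunoproteasome subunit Psmb8 by 0.78 ± 0.10, the peptide transporter subunit Tap1 by 0.67 and B2m, the light chain, by 0.34 ± 0.09. Calr, Nlrc5, Erap1, Tapbp and Pdia3 were not called. H2-M2, a nonclassical class I gene that was in no list, had one of the largest differences among the genes named by size. It stood at 55.3, 25.8, 29.9 and 31.9 CPM in members and at 0.879, 0.759, 2.26 and 4.61 CPM in the others, 4.27 ± 0.32 higher (adjusted p = 2.68e-19).

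Genes of costimulation split. Of 11 tested, 3 rose and 0 fell (median 0.25). Tnfsf9, the ligand of the T cell receptor 4-1BB, stood at 41.2, 96.7, 142 and 171 CPM in members and at 4.73, 18.6, 17.4 and 24.7 CPM in the others (2.77 ± 0.16, adjusted p = 2.54e-26). Cd40, which receives help from T cells, stood at 21.5, 72.5, 29.9 and 30.2 CPM against 10.7, 12.7, 8.03 and 12.7 CPM (1.67 ± 0.21, adjusted p = 9.75e-10). Il12b, a subunit of interleukin 12, rose by 1.01 ± 0.30 (adjusted p = 0.00934). Cd86, a ligand of CD28, stood at 260.4, 517, 344 and 434 CPM against 273, 443, 421 and 482 CPM (-0.03 ± 0.10, adjusted p = 0.855), and Cd80, the other, gave -0.03 ± 0.19 (adjusted p = 0.939). Members were thus higher for a ligand and a receptor of T cell contact but not detectably for either ligand of CD28.

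Chemokines and cytokines were the list with the highest median difference among those with at least 10 genes tested. Of 17 tested, 15 rose and 0 fell (median 1.48), 10 of them in all 3 fits. Fewer rose, with a lower median, once cells with at least 2 UMIs of other monocyte and dendritic genes were left out (counts below). Il1b, the cytokine interleukin 1 beta, stood at 761, 3537, 4069 and 2457 CPM in members and at 115, 713, 433 and 829 CPM in the others, 2.44 ± 0.12 higher (adjusted p = 1.1e-29). Its level in members of the i.v. female lay below that in other cells of the i.c.v. male, so the groups overlapped although every mouse rose. Cxcl2, which attracts neutrophils, stood at 1387, 2428, 2356 and 4301 CPM against 417, 454, 746 and 729 CPM (2.11 ± 0.10, adjusted p = 2.51e-29). Ccl2, which attracts monocytes, rose from 116, 153, 174 and 156 CPM in the others to 287, 469, 516 and 434 CPM in members (1.48 ± 0.10, adjusted p = 8.66e-23). Ccl8, a chemokine of the same family, stood at 616, 244, 15.0 and 144 CPM against 74.4, 52.6, 17.0 and 33.2 CPM (2.47 ± 0.13, adjusted p = 1.92e-27). It was not higher in members of the i.c.v. female, who had 25. Il1a (-0.23) and Ccl24 (0.11) were not called.

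Interferon-responsive genes rose too. Of 18 genes of the type I response tested, 14 rose and 1 fell (median 0.92), and of 15 genes of the interferon gamma response 8 rose and 1 fell (median 0.45). For both lists most calls were lost without cells that held at least 2 UMIs of other monocyte and dendritic genes (counts below). Ifi27l2a stood at 617, 363, 479 and 391 CPM in members and at 185, 124, 68.8 and 131 CPM in the others (1.79 ± 0.11, adjusted p = 2.36e-24). Isg15, a ubiquitin-like protein, stood at 109, 253, 269 and 198 CPM against 39.7, 65.1, 43.3 and 82.2 CPM (1.70 ± 0.12, adjusted p = 1.06e-20). Irf7, a transcription factor of this response, rose by 1.46, and Bst2, tetherin, fell by 0.27 (adjusted p = 0.0309). Among the interferon gamma genes, Cxcl9, a chemokine for T cells, stood at 91.0, 163, 0 and 18.4 CPM against 0.550, 10.1, 0.113 and 1.26 CPM. It was high in members of both i.v. mice and undetected in those of the i.c.v. female, and its difference was 4.78 ± 0.25 (adjusted p = 3.55e-28). Cd72, a lectin-like receptor placed in this list, stood at 209.8, 158, 284 and 117 CPM against 35.1, 22.0, 21.0 and 26.1 CPM (2.71 ± 0.13, adjusted p = 9.62e-30).

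Genes of microglial identity were lower in members. Of 22 homeostatic microglia genes tested, 21 fell and 0 rose (median -0.92), 19 of them in all 3 fits, against 9.64% of all genes lower. Most of these calls were lost without cells that held at least 2 UMIs of other monocyte and dendritic genes (counts below). P2ry12, the purinergic receptor of resting microglia, stood at 147, 182, 112 and 209.5 CPM in members and at 490.4, 431, 493 and 486 CPM in the others (-1.48 ± 0.11, adjusted p = 6.06e-20). Sparc, a matrix-associated glycoprotein, stood at 71.2, 55, 59.8 and 126 CPM against 503, 466, 564 and 585 CPM (-2.75 ± 0.12, adjusted p = 1.66e-32). Tmem119, a membrane protein used as a microglia marker, stood at 174, 151, 254 and 131 CPM against 358, 329, 348 and 354 CPM (-1.08 ± 0.11, adjusted p = 1.1e-13). No groups overlapped for these 3 genes. Sall1, a transcription factor of microglia, was already low in the other GFP+ cells at 19.1, 8.73, 22.9 and 17.1 CPM, and stood at 1.29, 1.67, 0 and 0 CPM in members (-3.74 ± 0.46, adjusted p = 2.42e-10). Sall1 was not called at 500 UMIs per cell (adjusted p = 0.776). Gpr84 was the only gene of the list not called (-0.24 ± 0.16, adjusted p = 0.317).

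The core macrophage genes moved little by comparison. Of 14 tested, 1 rose and 4 fell (median 0.07), all of them in all 3 fits. C1qa stood at 8572, 7280.2, 8064 and 7192 CPM in members and at 8515, 7022, 6881 and 7180.3 CPM in the others (0.07 ± 0.09, adjusted p = 0.646). Csf1r, the receptor on which microglia and macrophages depend, stood at 1191, 1132, 1115 and 1291 CPM against 1423, 1385, 1721 and 1500.3 CPM (-0.33 ± 0.09, adjusted p = 0.00482). Mertk, a receptor for apoptotic cells, stood at 112, 120.0, 149.6 and 92.2 CPM against 222, 237, 314 and 215 CPM (-1.04 ± 0.11, adjusted p = 6.93e-13). Cx3cr1 and Itgam, whose proteins were among those sorted on, fell by 0.71 and 0.59, and Cd68, a lysosomal protein, rose by 0.35.

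CAM genes moved in both directions. Of 24 tested, 13 rose and 3 fell (median 0.30), 8 and 3 of them in all 3 fits. F13a1, the coagulation factor XIII A chain, stood at 143, 201.7, 119.7 and 315 CPM in members and at 49.7, 44.6, 23.2 and 59.3 CPM in the others (2.04 ± 0.12, adjusted p = 1.58e-25). Pf4, platelet factor 4, stood at 802, 800.3, 546 and 1245 CPM against 339.7, 343, 246 and 311 CPM (1.43 ± 0.10, adjusted p = 1.92e-20). Mrc1, the mannose receptor, stood at 532, 780.3, 419 and 950.4 CPM against 522, 554, 456 and 603 CPM, and its call (0.31 ± 0.10, adjusted p = 0.015) was not made in all 3 fits. The scavenger receptor Stab1 and the transcription factor Maf fell by 0.66 and 0.38. The members therefore did not show 1 direction over this list.

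Dendritic cell genes outside the rule were mostly higher in members. Of 13 tested, 8 rose and 1 fell (median 0.77), 6 and 1 of them in all 3 fits. Clec10a, a galactose-binding lectin, stood at 45.0, 45.9, 127 and 53.6 CPM in members and at 11.8, 3.42, 16.9 and 5.45 CPM in the others (2.75 ± 0.21, adjusted p = 5.13e-19). Tnip3, which binds the NF-kB inhibitor A20, stood at 70.4, 188, 37.4 and 93.9 CPM against 10.7, 9.68, 5.88 and 6.29 CPM (3.51 ± 0.18, adjusted p = 1.57e-28). Itgax, the integrin chain CD11c, rose by 1.2, and Fscn1, fascin, which marks migrating dendritic cells and is also made by microglia, fell by 1.59 (adjusted p = 1.41e-06). Of 9 further monocyte genes tested, 4 rose and 1 fell, and only Napsa was called in all 3 fits. S100a6, a calcium-binding protein of monocytes, gave -0.88 here but 0.92 at 500 UMIs per cell, where it was called in the opposite direction. With every cell left out that held at least 2 UMIs of the monocyte and dendritic lists outside the rule, a choice made after seeing the data, 81 (1.47%) higher and 73 (1.32%) lower of 5527 genes were called. Then 5 of 13 chemokines rose, 3 of 6 class II loading genes rose, 1 of 15 class I genes rose and 2 of 20 homeostatic genes fell, with medians of 0.76 for chemokines and -0.54 for homeostatic genes. Of the other lists, 2 of 11 type I interferon, 1 of 8 interferon gamma, 2 of 19 CAM and 2 of 12 disease-associated genes rose, and 0 of 7 costimulation, 14 macrophage core, 3 cell cycle and 4 dendritic cell genes were called. The count for dendritic cell genes was largely set by the filter, because the same list chose the cells left out. The filter used each cell's own depth, so deeper cells were left out more readily. It left 5527 genes tested, against 10188 in the main comparison. What part of the lost calls came from fewer cells and UMIs was not tested.

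**Figure D3:**
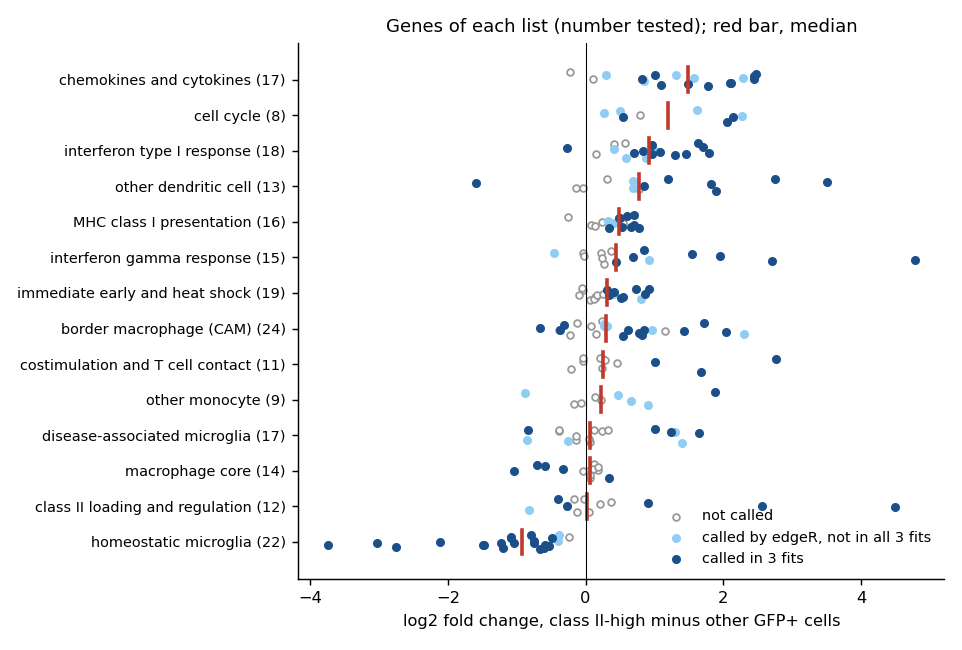
Log2 difference of members against other GFP+ cells (x axis) for each gene tested of the fixed lists (rows), with the median of each list marked and genes called in all 3 fits, by edgeR but not in all 3, and not called drawn apart. Homeostatic microglia genes lie below 0 and chemokines and cytokines mostly above 0, while class II loading genes spread on both sides with a median of 0.01.

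Among called genes with a mean of at least 20 CPM in the higher class and the same direction in all 4 libraries, those that rose most were AA467197, Ciita, H2-M2, Clec4b1, Mcub, Mgl2, Tnip3, Gm34084, Gpr132 and C4b. Mgl2, a galactose-binding lectin of macrophages and dendritic cells, stood at 239, 203, 920.1 and 218 CPM in members and at 20.6, 9.11, 67.0 and 9.95 CPM in the others, 3.97 ± 0.12 higher (adjusted p = 7.28e-43). The i.c.v. female was far above the other 3 mice for this gene. Clec4b1, a lectin receptor, stood at 18.0, 20.8, 22.4 and 31.9 CPM against 1.32, 0.949, 0.226 and 1.68 CPM (4.25 ± 0.38, adjusted p = 1.27e-15). AA467197 stood at 24.9, 31.7, 82.3 and 3.35 CPM against 0.879, 2.66, 0.226 and 0.419 CPM, a rise of 4.71 ± 0.43 that was smallest in level in the i.c.v. male. C4b, complement component 4, stood at 99.5, 44.2, 37.4 and 104 CPM against 11.3, 7.02, 5.54 and 13.4 CPM (2.95 ± 0.17). Mcub, an inhibitory subunit of the mitochondrial calcium uniporter, rose by 4.13 ± 0.33, the lipid-sensing receptor Gpr132 by 2.97 ± 0.22, and the long non-coding RNA Gm34084, at chr13:44472426-44504548 on the minus strand of GRCm38, by 3.04 ± 0.27. All 10 were called in all 3 fits.

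By the same rule, the genes that fell most, beside Sparc and the lens crystallin gene Crybb1 (-2.11 ± 0.16) of the homeostatic list, included Nav3, Tmem100, Adamts1, Thrsp, Ecscr, Adgrg1 and Cdk5r1. Ecscr turned to 0.31 and was not called without cells that held a UMI of the non-myeloid or neutrophil lists. Adamts1, a secreted protease, stood at 1.72, 5.00, 0 and 16.8 CPM in members and at 28.7, 29.6, 95.9 and 76.6 CPM in the others (-2.99 ± 0.26, adjusted p = 2.8e-16). Adgrg1, an adhesion receptor of microglia and neural cells, stood at 6.44, 9.17, 0 and 11.7 CPM against 52.0, 40.0, 67.9 and 57.4 CPM (-2.67 ± 0.23, adjusted p = 6.79e-17). Adgrg1 and Adamts1 were lower in members than in the other cells of every mouse.

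Further lists moved in part. Of 8 cell cycle genes tested, 7 rose, 3 of them in all 3 fits. Stmn1, a microtubule regulator of dividing cells, stood at 60.9, 79.2, 29.9 and 28.5 CPM against 13.6, 10.4, 10.4 and 17.1 CPM (2.06 ± 0.20, adjusted p = 1.3e-14). Of 17 disease-associated microglia genes tested, 5 rose and 3 fell (median 0.07). Lyz2, lysozyme, rose by 1.24 ± 0.10, the ferritin chain Fth1 by 1.01 and the lipase Lpl by 1.64, while the protease Ctsd fell by 0.84 and Apoe by 0.26 (adjusted p = 0.0381, not in all 3 fits). Of 19 immediate early and heat shock genes, which can respond to cell isolation, 10 rose and 0 fell (median 0.31), among them Egr1 by 0.92 and Junb by 0.73. Their part in the other differences was not tested.

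Levels were also read along the class II share of the cell. Cells with 0 UMIs of the markers were placed in bins by their share of class II UMIs, and levels are CPM without TMM over all 5 bins in order of rising share. Ciita stood at 1.31, 2.09, 18.8, 49.0 and 77.3 CPM in the i.v. female and at 5.49, 2.69, 53.9, 60.3 and 81.3 CPM in the i.v. male. It stood at 0.867, 1.98, 2.60, 19.4 and 72.2 CPM in the i.c.v. male and at 0.758, 0.667, 26.3, 0 and 58.6 CPM in the i.c.v. female. In both i.v. mice Ciita was raised between 0.3 and 0.6%, below the rule's threshold. In the i.c.v. female the bins of 0.3 to 0.6% and 0.6 to 1.2% held 32 and 11 cells, with 76291 and 45601 UMIs in all, too few to read a course from. H2-DMb1 stood at 104, 114, 132, 248 and 735 CPM in the i.v. female and at 76.0, 101, 122, 155 and 658 CPM in the i.c.v. male, so most of its rise came at 1.2% and above. The summed homeostatic list stood at 38094, 33175, 22425, 23156 and 19205 CPM in the i.v. female and at 30971, 31898, 25249, 24149 and 15564 CPM in the i.c.v. male. It was lower from 0.3% on and lowest at 1.2% and above. The threshold of 0.6% therefore did not fall on a step shared by these measures.

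**Figure D4:**
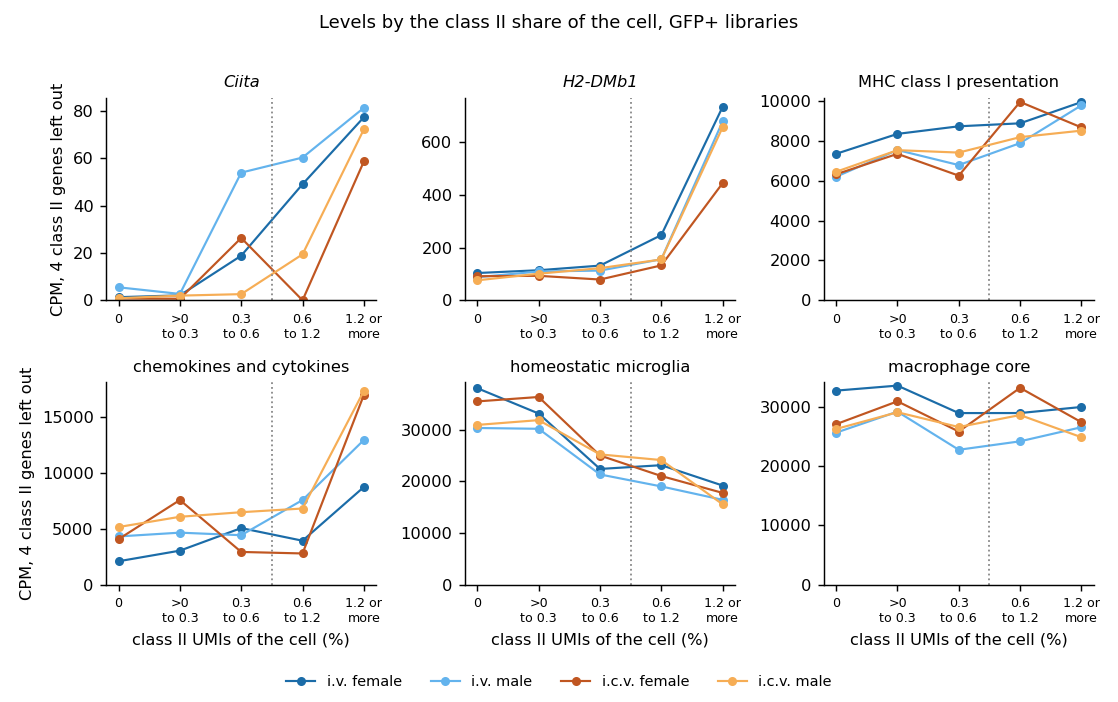
CPM per library (y axis, linear from 0, without TMM) of single genes and of summed lists over 5 bins of the cell's class II share in percent (x axis), with a dotted line at the rule's 0.6%. In all 4 libraries Ciita and H2-DMb1 are highest and the homeostatic list is lowest in the last bin; the bins of 0.6 to 1.2% and of 1.2% or more of the i.c.v. female rest on 11 and 14 cells.

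The same comparison was made in the 4 GFP- libraries, which the choice of members did not use. There 571 of 15672 cells met the rule (31, 79, 276 and 185), and of 9965 genes tested 1283 (12.9%) were higher and 1126 (11.3%) lower, 980 (9.83%) and 655 (6.57%) in all 3 fits. Without the library of the i.c.v. male 707 were lower. After the draw to 500 UMIs and a new choice of classes, 301 higher and 244 lower genes were called, with 511 of the 2409 main calls shared. Of the 1311 genes higher in GFP+ members, 857 (65.4%) were also higher in GFP- rule cells, which is 66.8% of the calls there, and 7 of the 1311 were lower there. Of the 982 lower genes 547 were shared (55.7% of the GFP+ and 48.6% of the GFP- calls), and 9 were opposite. Ciita stood at 88.1, 67.2, 57.0 and 97.0 CPM in GFP- rule cells and at 0.199, 0.591, 2.00 and 0.828 CPM in the other GFP- cells (6.29 ± 0.46, adjusted p = 2.26e-16). H2-DMb1 rose by 2.65 ± 0.16 and H2-DMa by 1.49 ± 0.16. Of the homeostatic genes 20 of 22 fell, 19 of them shared with the GFP+ comparison, with P2ry12 at 162, 566, 569.9 and 647 CPM against 1311, 1581, 914 and 1567 CPM (-1.47 ± 0.19, adjusted p = 1.05e-08). In the GFP- libraries of the i.c.v. mice this fall lay mostly in cells of the highest class II share. P2ry12 stood at 250.2, 958, 1075 and 1448 CPM without TMM in GFP- cells of 0.6 to 1.2% (7, 43, 175 and 99 cells), and at 127, 279, 177 and 279 CPM at 1.2% and above. The pooled i.c.v. values therefore join cells at unlike levels.

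By this rule, the genes that rose most in GFP- rule cells were Ciita, Mgl2 (5.37), Clec4b1 (5.15), Gm34084 (4.52) and Cxcl1 (4.37), the first 4 of which were also among the 10 that rose most in GFP+. Cxcl1, a neutrophil chemokine, stood at 272, 538, 616 and 135 CPM against 5.98, 11.5, 43.7 and 15.4 CPM. The genes that fell most were A830008E24Rik (-5.35), Myo18b (-4.96), Col6a3 (-4.65), the neutrophil gene S100a8 (-4.01) and Csmd3 (-3.95). For the CAM list the median was 1.80 in GFP- and 0.30 in GFP+, with 17 rising and 1 falling in GFP-. The cell cycle list had a median of -0.87 in GFP- and 0.78 in GFP+ over the 7 genes tested in both.

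**Figure D5:**
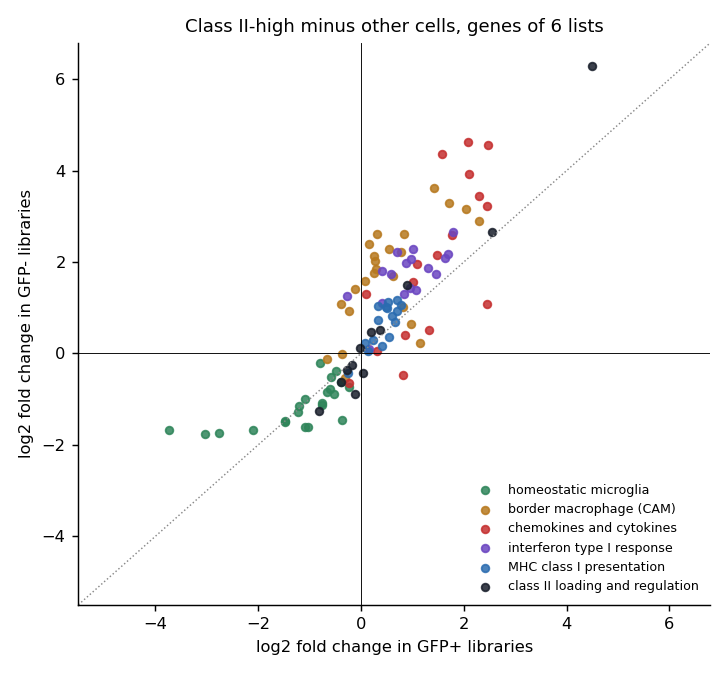
Log2 difference of class II-high against other cells in the GFP- libraries (y axis) and in the GFP+ libraries (x axis), with 1 point per gene tested in both and members of selected lists coloured. Homeostatic genes lie below 0 on both axes, and CAM genes lie higher on the GFP- axis, with medians of 1.80 and 0.30.

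Whether the class II-high difference depended on the sort was tested with an interaction term. The fit took each library as a block and did not pair the GFP+ and GFP- libraries of the same mouse. Of 10884 genes, 104 (0.956%) had a more positive and 252 (2.32%) a more negative difference in GFP+. Of these, 64 (0.588%) and 169 (1.55%) were called in all 3 fits. At 500 UMIs per cell 11 and 23 were called, and 30 of the 356 main calls were shared. Fewer genes were more positive with 1 i.v. library left out, the GFP+ female (53), the GFP+ male (55) or the GFP- male (53, with 163 more negative), and 405 were more negative with the i.c.v. female left out of GFP-. None of the 12 class II loading genes or 16 class I genes was called in either direction, with Ciita at -1.68 (adjusted p = 0.0584) and H2-DMb1 at -0.10 (adjusted p = 0.883). Of 25 CAM genes, 14 were more negative in GFP+ and 0 more positive, 3 of them in all 3 fits. Stmn1 stood at 65.2, 83.1, 31.4 and 30.0 CPM in members and at 0, 5.28, 25.4 and 17.8 CPM in GFP- rule cells, with an interaction of 2.93 ± 0.44 (adjusted p = 5.34e-05). Lpl had the largest positive interaction of the named genes, 3.09 ± 0.41 (adjusted p = 1.11e-05). Mrc1 stood at 1297, 1071, 816 and 706 CPM in GFP- rule cells and at 73.9, 145, 282 and 183 CPM in the other GFP- cells, with an interaction of -2.27 ± 0.30 (adjusted p = 1.11e-05) that was lost with the robust spread (adjusted p = 0.144). Mrc1 stood at 549.8, 583, 482 and 634 CPM in the other GFP+ cells, above the other GFP- cells in every mouse.

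Set side by side directly, GFP+ members and GFP- rule cells differed in few genes that passed the test. Of 5157 genes, 2 (0.0388%) were higher and 5 (0.0970%) lower in GFP+ members by edgeR without a block, and 6 and 19 with the mouse as a replicate block. Leaving out 1 library at a time gave 0 to 5 higher and 1 to 24 lower genes, with 0 higher without any 1 of the GFP- libraries of the i.v. male, i.c.v. female or i.c.v. male and 24 lower without that of the i.v. female. Ciita stood at 76.7, 74.1, 39.8 and 59.5 CPM in members and at 85.7, 60.7, 47.9 and 83.6 CPM in GFP- rule cells (0.02 ± 0.24, adjusted p = 0.999), which does not show that the levels were equal. H2-M2 stood at 53.2, 23.9, 31.8 and 29.7 CPM in members and at 14.3, 0, 1.92 and 4.64 CPM in GFP- rule cells, 3.18 ± 0.58 higher (adjusted p = 0.044). Phf11b was 1.48 higher (adjusted p = 0.028). Slc2a5, a hexose transporter of microglia, stood at 1.24, 2.32, 7.96 and 1.57 CPM against 28.6, 35.4, 65.2 and 60.4 CPM (-4.73 ± 0.44, adjusted p = 7.24e-05). Fscn1, Sparc, Lrba and Selplg were lower in members by 2.69, 2.39, 1.97 and 1.29 (differences of -2.69, -2.39, -1.97 and -1.29). P2ry12 gave -1.45 and an adjusted p of 0.0526. H2-M2 was thus higher and Slc2a5 lower in members of all 4 mice than in any GFP- library.

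The GFP+ cells most like the members were the 743 class II-high cells that held a UMI of the 9 markers (457, 259, 6 and 21). Their median depth was 8771, 11725, 3073 and 6619 UMIs, above that of members in 3 of the 4 libraries, and the chance of seeing a marker rises with depth. Of 6995 genes, 547 (7.82%) were higher and 332 (4.75%) lower in members, but 92 (1.32%) and 48 (0.686%) in all 3 fits and 19 and 26 at 500 UMIs per cell, where the library of the i.c.v. female drops out because none of its marker-positive cells was left. Without the i.v. female library 16 genes were called in all, and without the i.v. male 25. Without the i.c.v. female 525 genes were lower, and without the i.c.v. male 619. S100a6, a calcium-binding protein of monocytes, stood at 23.3, 11.7, 0 and 1.58 CPM in members and at 1039, 1298, 0 and 7.03 CPM in marker-positive cells (-5.94 ± 0.45, adjusted p = 6.35e-13). It was therefore high in the marker-positive cells of the i.v. mice only. S100a11, Ifitm6, Olfm1 and Emb were lower in members by 3.27, 4.89, 3.74 and 3.09 (differences of -3.27, -4.89, -3.74 and -3.09), and Clec4b1, which was higher in members than in the other GFP+ cells, was lower here (-3.32 ± 0.31), at 17.2, 19.6, 23.7 and 29.9 CPM against 258, 272, 28.2 and 77.4 CPM. Clec4b1 in members thus lay between the marker-positive and the other cells in all 4 mice.

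Many homeostatic microglia genes and a few macrophage genes were higher in members than in marker-positive cells. Of 20 homeostatic genes 15 were higher, 6 of them in all 3 fits, and of 14 macrophage core genes 3, all in all 3 fits. Mertk stood at 107, 113, 158 and 86.6 CPM against 28.5, 15.7, 84.7 and 77.4 CPM (1.99 ± 0.26, adjusted p = 1.77e-07), Cx3cr1 was 1.59 higher and Adgre1, which encodes F4/80, was 1.31 higher. By the rule of size the leading genes were Gpnmb (4.47 ± 0.47), Apoc4 (3.81), Rapgef5 (3.05), Syngr1 (2.89) and Epb41l3 (2.78). Gpnmb, a glycoprotein of lipid-laden macrophages, stood at 47.8, 23.5, 63.3 and 20.5 CPM in members against 2.19, 0, 0 and 14.1 CPM. C1qa stood at 8162, 6834, 8525 and 6759 CPM against 3555, 2304, 3925 and 7315 CPM and was not called (0.95 ± 0.34, adjusted p = 0.0561). Ciita stood at 76.0, 75.1, 39.5 and 59.9 CPM in members and at 147, 132, 0 and 91.4 CPM in marker-positive cells, a difference of -0.79 (adjusted p = 0.013) that was not called in all 3 fits. Members thus had more Mertk and Gpnmb in each mouse and less Ciita in all but the i.c.v. female, which had 6 marker-positive cells.

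Members of the i.v. and the i.c.v. mice were compared with 2 libraries per route. Of 7409 genes, 0 (0.00%) were called by edgeR, 194 had an unadjusted p under 0.05, and DESeq2 called 3 and the robust fit 0. Without the i.v. male library, where the lone i.v. sample is assumed to vary like the others, 28 genes were higher and 90 lower in i.v. members, and 4 to 15 were called without each of the other 3. Cxcl9 stood at 85.7 and 150.0 CPM in i.v. members and at 0 and 17.2 CPM in i.c.v. members (3.09 ± 0.54, adjusted p = 0.131 by edgeR). Ccl8 stood at 581 and 224 CPM against 15.6 and 135 CPM (2.09 ± 0.52, adjusted p = 0.726). Both chemokines were higher in both i.v. mice, and neither passed the test. The interaction of class and route, which asks whether members differed from other GFP+ cells by another amount in the i.v. mice, called 14 (0.130%) and 11 (0.102%) of 10770 genes by edgeR and 0 in all 3 fits. It called 1 and 2 without the i.v. male library, 7 and 1 without the i.v. female and 18 and 27 without the i.c.v. male.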

How the data were processed

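The authors deposited, per the file headers and labels, 10x single-cell count tables made with Cell Ranger 3.1.0 on mm10, which hold whole-number UMI counts per gene and barcode without normalization. Kept barcodes had 200 or more genes and no more than 10% of UMIs from mitochondrial genes, doublets were not removed, and each treated library held a median of 842 to 3499 UMIs per cell. Counts were summed per library and class of cell without the 13 rule genes. Sums were compared in R 4.3.3 with edgeR 4.0.16 (TMM, filterByExpr, quasi-likelihood F test, two-sided, Benjamini-Hochberg adjustment, called under 0.05), with library as a block where both classes came from each library. Prior degrees of freedom were 73.9 against 3 residual ones in the comparison within GFP+ libraries and 50.4 against 3 within GFP- libraries. They were 39.8 against 3 for members and marker-positive cells, and infinite against 2 in the route interaction. A gene's own spread thus counted little there. A robust edgeR fit, added after seeing the data, and DESeq2 1.42.0 were therefore run beside it. GFP+ and GFP- sums of 1 mouse share an animal by the labels, and their deviations from the group means correlated by 0.35, 0.18, 0.08 and 0.07 for the i.v. female, i.v. male, i.c.v. female and i.c.v. male.

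Shares were computed at 500 UMIs per cell with Python 3.11.15, numpy 2.4.6, pandas 2.3.3 and scipy 1.17.1. Intervals and limits from 3 cells cover counting error only. The scripts were tested on simulated data. Figures were drawn with matplotlib 3.10.9. Gene positions are from GENCODE M21 (GRCm38) and promoters from RefSeq GRCm38.p6, where H2-Ab1, Ciita, Cd74 and Rfxap were not matched.

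The members, the 26 gene lists (341 genes) and the tests were chosen with earlier results of these data known. Genes named by size were the 10 largest log2 differences per direction among those called, at a mean of 20 CPM or more in the higher class and with 1 direction in all 4 libraries (5 per direction in other comparisons), beside up to 4 genes per list with the smallest p, all genes of class II loading, EGFP, Y-linked genes and Xist; other genes of the lists were named after their values were seen, and 2 genes are not reported here. Alternatives covered the block, DESeq2, the robust fit, normalization, the low-count filter, thinning, quality and class II thresholds, cells left out by markers or depth, and each library left out in turn.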

Additional observations from a re-analysis of the deposited data

Results flagged for a closer look

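Mgl2 in members was far higher in the i.c.v. female, at 920.1 CPM, than in the other 3 GFP+ libraries, which lay at 203 to 239 CPM. Of 33 groups of 4 libraries looked at in this way, 1 stood out, and chance gives about 1 in 20. Only 25 members came from that mouse.

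The class II-high difference depended on the sort for 104 genes that were more positive and 252 that were more negative in the GFP+ libraries by the interaction term in edgeR. At 500 UMIs per cell the same term called 11 and 23, with 30 of the 356 main calls shared. The named genes were Lpl (3.09), Stmn1 (2.93), the long non-coding RNA Gm32849 (2.42), Nsun6 (2.19) and Rtn1 (2.14), and on the negative side Cxcl1 (-2.78), Runx3 (-2.30), Ahr (-2.29), Mrc1 (-2.27) and Clec12a (-2.16). Of these, the 5 positive genes and Ahr were called in all 3 fits.

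The member difference depended on the route for 14 and 11 genes by the same kind of test, with 2 libraries per route and none in all 3 fits. Stmn1 (1.60), Cd69 (1.47), Cxcl10 (1.3), Dusp2 (1.3) and Arl5c (1.15) were more positive after i.v. dosing. Xist (-7.04), Ccl24 (-1.65), Ifitm2 (-1.04) and Ifitm3 (-0.85) were more negative. The value of Xist rests on the female mouse of each route, since Xist was undetected or nearly so in the male mice.

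In data outside the main comparison, 7.26% of naive microglia and 22.8% of naive PBMCs met the rule at 500 UMIs per cell, and 2.75% and 2.35% did without thinning. Among GFP- cells of the i.c.v. male, Xist was detected in 7.57% of rule cells (14 of 185) and in 1.63% of the other cells (61 of 3748), at the same depth. The recipient was male. The text of the study calls all donors male, but its methods say so only of the transduced pools, so the sex of the marrow given without vector is uncertain.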

How the results depend on the processing

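Shares of cells kept their direction under every alternative run, with 5.31 to 12.8 percentage points for GFP+ minus GFP-, 14.8 to 22.0 for i.v. minus i.c.v. in GFP+ and -8.64 to -5.17 in GFP- when 1 library was left out. Without thinning these were 5.53, 11.2 and -3.99, and at 1000 UMIs 8.76, 17.5 and -3.13. Counts of calls moved more, and the cause was not tested. Thinning and leaving out cells leave fewer UMIs, and at 500 UMIs the classes were also chosen again. For members against other GFP+ cells, genes higher and lower numbered 625 and 436 with no replicate block, 800 and 456 in DESeq2, 489 and 276 at 500 UMIs, 188 and 97 without cells with UMIs of non-myeloid or neutrophil lists, 81 and 73 without cells with at least 2 UMIs of other monocyte and dendritic lists, and 865 to 1272 and 516 to 831 without 1 library; 578 were lower at a class II threshold of 0.3%. Of the 2293 calls, 693 were shared at 500 UMIs (692 in the same direction) and 149 without cells with other monocyte or dendritic UMIs.

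In the GFP- libraries DESeq2 called 660 lower, 500 UMIs gave 301 and 244, and leaving out 1 library 931 to 1268 and 707 to 1010. The sort interaction gave 11 and 23 at 500 UMIs and 53 to 146 and 163 to 405 without 1 library. Members against marker-positive cells gave 172 and 100 with no replicate block, 115 and 67 in DESeq2, 101 and 56 with the robust spread, 19 and 26 at 500 UMIs, 693 lower with genes of at least 10 UMIs, and 7 to 732 and 9 to 619 without 1 library. Members by route gave 3 higher in DESeq2, 11 and 13 with genes of at least 10 UMIs, 2 higher with upper-quartile normalization, 2 higher at 500 UMIs, and 1 to 28 and 3 to 90 without 1 library. The route interaction gave 0 and 0 in DESeq2, 0 and 1 with the robust spread, 8 higher with upper-quartile normalization, 2 and 0 at 500 UMIs, and 1 to 18 and 1 to 27 without 1 library. GFP+ against GFP- rule cells gave 6 and 19 with the mouse as a replicate block, which pairs sums of the same animal, 12 lower in DESeq2, 9 lower with the robust spread, 8 and 30 with genes of at least 10 UMIs, 5 and 20 at 500 UMIs, and 0 to 5 and 1 to 24 without 1 library.

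Of 1671 values for 100 named genes in the first comparison, 1505 kept the call or its absence, 140 lost the call, 15 gained it and 11 turned. Some sign changes of uncalled genes are counted within the 1505. Examples are Rfx5 (0.05 in the main fit, -0.22 at the lowest) and H2-Ob (-0.17, 0.39 at the highest). Those that turned were Xist in DESeq2 (2.49), S100a6 at 500 UMIs (0.92), Clu (0.84), Enpp2 (0.36) and Ttr (0.091) for cells of 500 or more genes with no more than 5% of mitochondrial UMIs, Vtn at a threshold of 1.2% (-1.43), Ecscr without cells with non-myeloid UMIs (0.31), Clu (0.069), Enpp2 (0.25) and Ttr (0.23) without the 5% of cells with the most UMIs, and Clu without the i.v. female (0.022, with -1.13 the lowest value without 1 library). Among these, S100a6 and Vtn were also called in the turned direction. In the route interaction Stmn1 (-0.13), Ifitm2 (0.20) and Ifitm3 (0.34) turned at 500 UMIs.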
